A study of Mus musculus with 4 samples.

Results

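The BCL-2 family sets whether a cell keeps its mitochondria intact or dies by apoptosis, and 10 of its genes were followed here in mouse hematopoietic stem and progenitor cells (HSPC) with constant activity of the kinase NIK. The genes were picked out by symbol from a list of the family, drawn up with earlier results of these data known: 4 anti-apoptotic genes (Bcl2, Bcl2l1, Bcl2l2 and Mcl1), 3 effectors (Bax, Bak1 and Bok) and 3 BH3-only genes (Bcl2l11, Bbc3 and Pmaip1). All 10 were among the 24015 gene symbols of the deposited count tables, and all 10 passed the filter on low counts, as did 14191 genes in all. The data are RNA-seq read counts from 4 libraries of sorted HSPC, 2 labelled control and 2 labelled caNIK. In caNIK mice, a mutant NIK that TRAF3 cannot target lies behind a loxP-flanked stop at the Rosa locus, and Vav-iCre, a Cre recombinase driven by the blood-cell Vav promoter, removes that stop. Whether the controls carried an allele of either line, the sort markers, and the age, sex and number of the mice are not stated in the labels. Nor do they say that the libraries of a group are from different mice; p-values therefore reflect only library-to-library spread, which may be technical.

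Anti-apoptotic proteins of this family bind and restrain the effectors, which otherwise open pores in the outer mitochondrial membrane and release cytochrome c. BH3-only proteins answer stress signals by occupying the anti-apoptotic proteins, and some of them also activate effectors directly. Stem and progenitor cells of the blood are known to need MCL-1 for survival, and NOXA, the product of Pmaip1, binds MCL-1. Non-canonical NF-kB signalling, which NIK starts, is known mostly for survival signals in B cells.

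Library totals lay between 18574452 and 23162766 counts. Map3k14, the gene of NIK, was at 30.2 and 25.1 CPM (reads per gene scaled to library size, with TMM factors that correct for differences in composition) in control replicates 1 and 2 and at 177 and 192 CPM in caNIK replicates 1 and 2. Kit, the stem cell factor receptor and 1 of the HSPC markers listed here, was counted 10387 to 14385 times in every library. Over all tested genes, 13.8% were higher and 8.21% lower in caNIK (edgeR quasi-likelihood test, adjusted p under 0.05). Among 10 HSPC markers, 6 were lower in caNIK and 0 higher, and none was at 0. Their summed level was 3057 and 2774 CPM in control and 1642 and 1234 CPM in caNIK. Marker lists of other cell types differed in direction. In the erythroid list, 6 of 10 were higher and 0 lower, and the sum went from 419 to 970 CPM in control to 1978 to 3417 CPM in caNIK. In the mast cell or basophil list, 6 of 8 were higher and 0 lower, with sums of 155 to 245 and 1148 to 2106 CPM. In the neutrophil list, 5 of 8 were higher and 1 lower, with sums of 53.3 to 153 and 231 to 330 CPM. The megakaryocyte list had 3 of 8 higher and 1 lower (98.5 to 194 and 450 to 571 CPM), and the monocyte or macrophage list 1 of 6 higher and 0 lower (67.8 to 84.8 and 223 to 234 CPM). Most of the megakaryocyte sum in caNIK was Itgb3, at 16.1 and 32.0 CPM in control and 339 and 242 CPM in caNIK. Gp9 of that list was the 1 lower, at 10.6 and 9.12 CPM in control and 3.60 and 4.05 CPM in caNIK. Summed levels of mature B cell markers (1 of 8 higher, 2 lower) overlapped between the groups, at 62.5 to 93.6 and 53.8 to 101 CPM. So did those of T or NK cell markers, at 73.0 to 133 and 70.8 to 181 CPM, of which 0 of 8 passed in edgeR's test (2 at an unadjusted p under 0.05, 2 in DESeq2). Of 6 endothelial markers 1 was lower and 0 higher, with sums of 133 to 140 CPM in control and 53.5 to 89.2 CPM in caNIK. In a bulk library, fewer cells of a type and less RNA per cell cannot be told apart.

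In caNIK HSPC the 3 BH3-only genes rose, the effector Bax rose, and the anti-apoptotic gene Bcl2 and the effector Bok fell. The other 3 anti-apoptotic genes and Bak1 did not pass the test. Thus 4 of 10 members were higher and 2 lower (edgeR quasi-likelihood test, adjusted p under 0.05 over all 14191 genes), where 13.8% of all tested genes were higher and 8.21% lower, or 22.0% in either direction. The members' median log2 fold change, caNIK against control, was 0.26, against 0.00 over all tested genes. By role, the median was 1.77 for the BH3-only genes, 0.25 for the effectors and -0.03 for the anti-apoptotic genes. These counts and medians describe the lists and are no test of them.

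**Figure D1:**
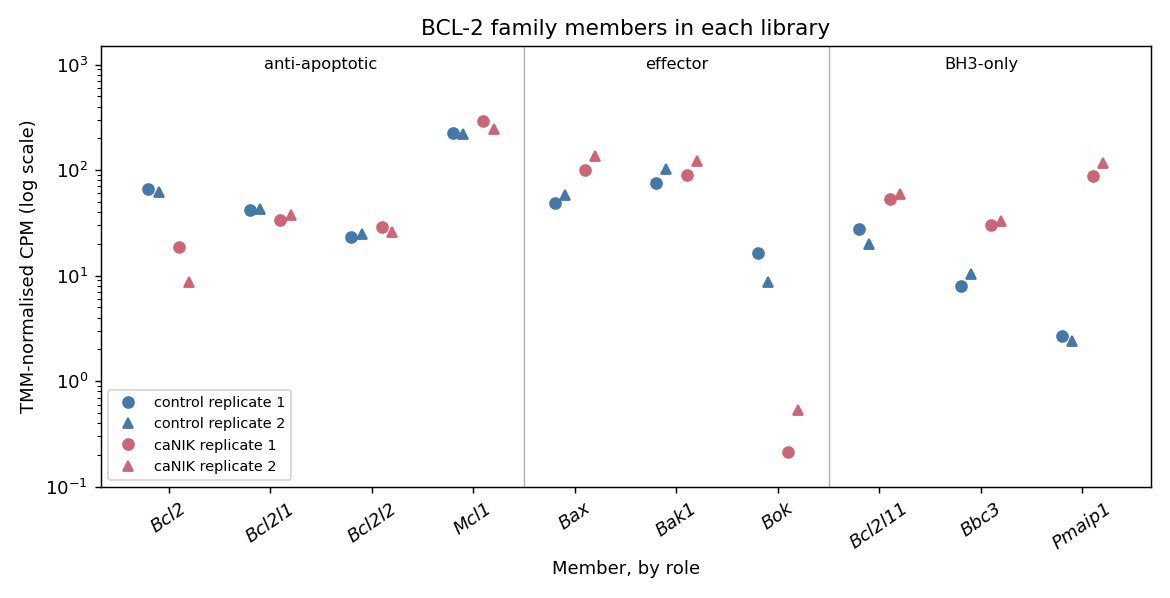
TMM-normalised CPM on a log axis for the 10 members, grouped by role, with 1 point for each of the 4 libraries (blue control, red caNIK; circles replicate 1, triangles replicate 2). Pmaip1 sits near 2.5 CPM in control and at 87.0 and 116 CPM in caNIK, Bok drops below 1 CPM in caNIK, and the points of Bak1 overlap between groups.

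Of the BH3-only genes, Pmaip1 (NOXA) changed most. Its reads numbered 52 and 56 in control and 1620 and 2405 in caNIK, which is 2.70 and 2.39 CPM against 87.0 and 116 CPM. The control level was low and the groups lay far apart. The log2 fold change was 5.32 with an SE of 0.24 (edgeR adjusted p = 8.39e-05), or 39.9-fold, and values after ± below are SE of log2 fold changes. Bbc3, which encodes PUMA, a BH3-only protein that p53 induces, was at 7.94 and 10.4 CPM in control and at 30.0 and 32.7 CPM in caNIK. Each caNIK library was thus above each control library, and the log2 fold change was 1.77 ± 0.25 (edgeR adjusted p = 0.00404). Bcl2l11, which encodes BIM, a protein that binds every anti-apoptotic member, was at 27.9 and 20.0 CPM in control and at 52.8 and 59.4 CPM in caNIK. These groups did not overlap either, with a log2 fold change of 1.23 ± 0.22 (edgeR adjusted p = 0.0094). The summed level of the 3 genes was 38.5 and 32.8 CPM in control and 170 and 208 CPM in caNIK. Groups that do not overlap are common with 2 libraries each: 33.3% of tested genes had both caNIK libraries above both controls, and 31.6% had both below.

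Among the effectors, Bax and Bok changed in opposite directions. Bax, whose product moves from the cytosol into the mitochondrial membrane, was at 49.1 and 57.9 CPM in control and at 101 and 137 CPM in caNIK, a log2 fold change of 1.15 ± 0.20 (edgeR adjusted p = 0.00918). Bak1, its partner that resides on mitochondria, was at 75.1 and 102 CPM in control and at 89.0 and 123 CPM in caNIK. The Bak1 groups overlapped, and the log2 fold change of 0.25 ± 0.23 did not pass (edgeR adjusted p = 0.474; 95% interval -0.29 to 0.79). For both genes replicate 2 lay above replicate 1 in each group. Bok, a less studied relative of Bax and Bak1 that is held low through protein degradation, was counted 315 and 205 times in control and 4 and 11 times in caNIK, or 16.3 and 8.73 CPM against 0.215 and 0.530 CPM. The lowest control library was far above the highest caNIK library, and the log2 fold change was -5.03 ± 0.62 (edgeR adjusted p = 0.00248). Without caNIK replicate 2, the library with 11 of the 15 caNIK reads, it was -5.84, in a fit whose spread comes from the controls.

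Of the anti-apoptotic genes, Bcl2 fell and the other 3 did not pass the test. Bcl2, the founding member, was at 65.7 and 61.7 CPM in control and at 18.6 and 8.63 CPM in caNIK. The controls were close together whereas the caNIK libraries differed from each other, and the log2 fold change was -2.23 ± 0.35 (edgeR adjusted p = 0.00634). Without caNIK replicate 1 it was -2.88, and without caNIK replicate 2 it was -1.80; each of these fits has a lone caNIK library, assumed to vary like the controls. Mcl1, which encodes a protein of short half-life, was at 227 and 218 CPM in control and at 289 and 246 CPM in caNIK (log2 fold change 0.27 ± 0.15; edgeR adjusted p = 0.25; 95% interval -0.09 to 0.63). Bcl2l1, which encodes BCL-XL, known for its part in erythroid and platelet survival, was at 41.8 and 42.6 CPM in control and at 33.3 and 37.4 CPM in caNIK (-0.26 ± 0.17; edgeR adjusted p = 0.336; interval -0.66 to 0.15). Bcl2l2, which encodes BCL-W, was at 23.0 and 24.6 CPM in control and at 28.7 and 26.2 CPM in caNIK (0.20 ± 0.20; edgeR adjusted p = 0.512; interval -0.27 to 0.67). The intervals of Mcl1 and Bcl2l1 lie mostly on 1 side of 0 and that of Bcl2l2 reaches further above 0 than below; a p that misses the threshold does not show that the groups were equal. The summed level of the 4 anti-apoptotic genes was 357 and 347 CPM in control and 370 and 319 CPM in caNIK, most of it from Mcl1.

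**Figure D2:**
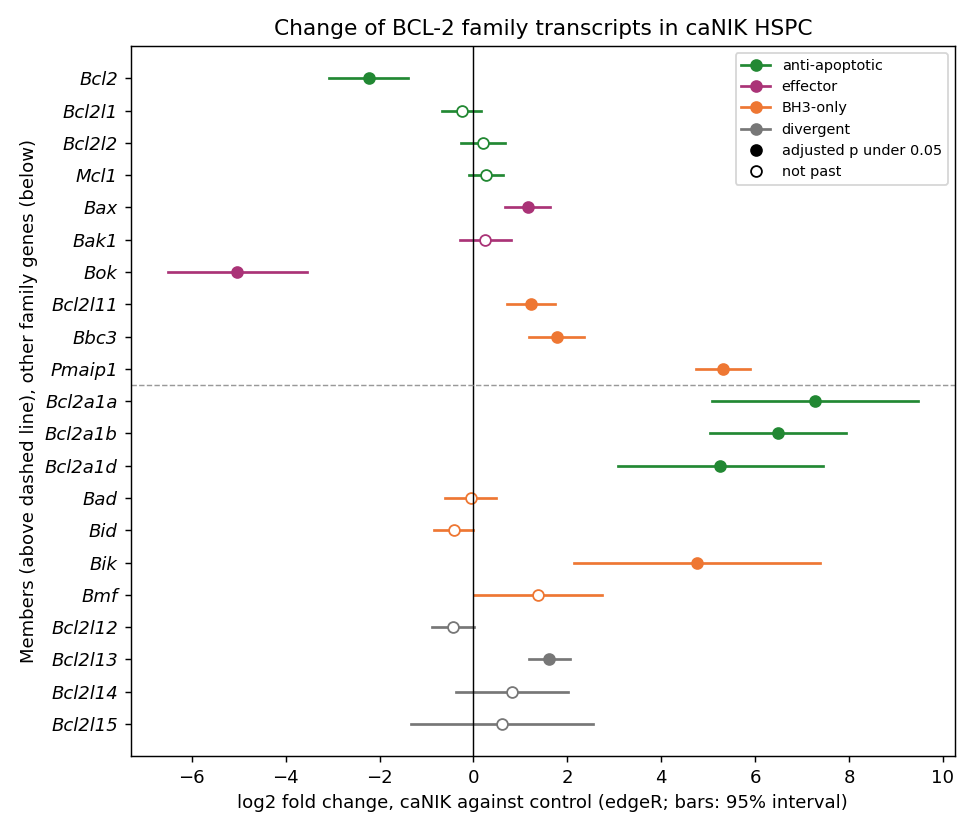
Log2 fold change of caNIK against control for the 10 members (above the dashed line) and the 11 other tested family genes (below), coloured by role, with 95% intervals from the edgeR fit; filled points passed at an adjusted p under 0.05. The 3 BH3-only members lie to the right of 0 and Bcl2 and Bok to the left; the points of Bcl2a1a and Bik rest on 1 and 2 control reads and depend on the fit's prior count.

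Levels can be set between genes only per length, so CPM were also divided by the merged exon length of each gene in GENCODE M21, an annotation of GRCm38, whereas the submitters' notes name mm9. On that scale of CPM per kilobase, Mcl1 was the highest member in both groups, at mean levels of 65.0 in control and 78.4 in caNIK. In control the next were Bak1 (36.9) and Bax (34.0), followed by Bcl2l1 (9.20), Bcl2 (6.95), Bok (6.81), Bcl2l2 (5.34), Bbc3 (4.33), Bcl2l11 (2.98) and Pmaip1 (0.930). In caNIK Bax (75.5) stood beside Mcl1, and Bak1 (44.0), Pmaip1 (37.1) and Bbc3 (14.8) came next. Pmaip1 went from the last place to the fourth. Bcl2 (1.49) and Bok (0.202) were the lowest in caNIK, below Bcl2l2 (6.15), Bcl2l11 (6.99) and Bcl2l1 (7.71). Several neighbours in that order overlapped between libraries: in control Bak1 with Bax, and Bok, at 8.88 and 4.75, with Bcl2, Bcl2l2 and Bbc3; in caNIK Mcl1, at 84.6 and 72.1, with Bax, at 64.0 and 86.9, Bak1 with Pmaip1, and Bcl2l1 with Bcl2l11. In GENCODE M21, 4 members share exon bases with another gene: Bcl2 with the antisense gene D630008O14Rik, Bak1 with Ggnbp1 on the opposite strand, and Bax and Bcl2l2 with the predicted genes Gm45808 and Gm20521 on the same strand. The strand setting of the counting is not given, so reads in those bases cannot be assigned to 1 gene.

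Ratios of read counts within a library do not depend on the scaling between libraries. They are not corrected for gene length, so a ratio above or below 1 does not rank 2 genes. Per kilobase, Bax (34.0) and Bcl2l1 (9.20) were already above Bcl2 (6.95) at mean control levels. The count of Bcl2l1 was 0.636 and 0.691 of that of Bcl2 in control, and 1.79 and 4.33 times it in caNIK. Bcl2l11 reads were 0.424 and 0.325 of Bcl2 reads in control and 2.84 and 6.89 times them in caNIK, a shift of 3.58 on the log2 scale. The Bax to Bcl2 ratio went from 0.748 and 0.939 to 5.43 and 15.9. In each of these 3 pairs the caNIK replicates lay apart, and replicate 2, where Bcl2 was lowest, had the higher ratio. The Pmaip1 to Mcl1 ratio went from 0.0119 and 0.0110 to 0.301 and 0.471, and the Bcl2l11 to Mcl1 ratio from 0.123 and 0.0920 to 0.182 and 0.241. The Bax to Bak1 ratio was 0.654 and 0.566 in control and 1.13 and 1.12 in caNIK. In all 6 pairs the caNIK libraries were above the controls. Each pair has the member with the larger log2 fold change as numerator, so this shared direction follows from how the pairs were written. The ratios are given as a description, with no test. With 2 libraries against 2, no two-sided exact permutation p below 0.333 is possible.

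**Figure D3:**
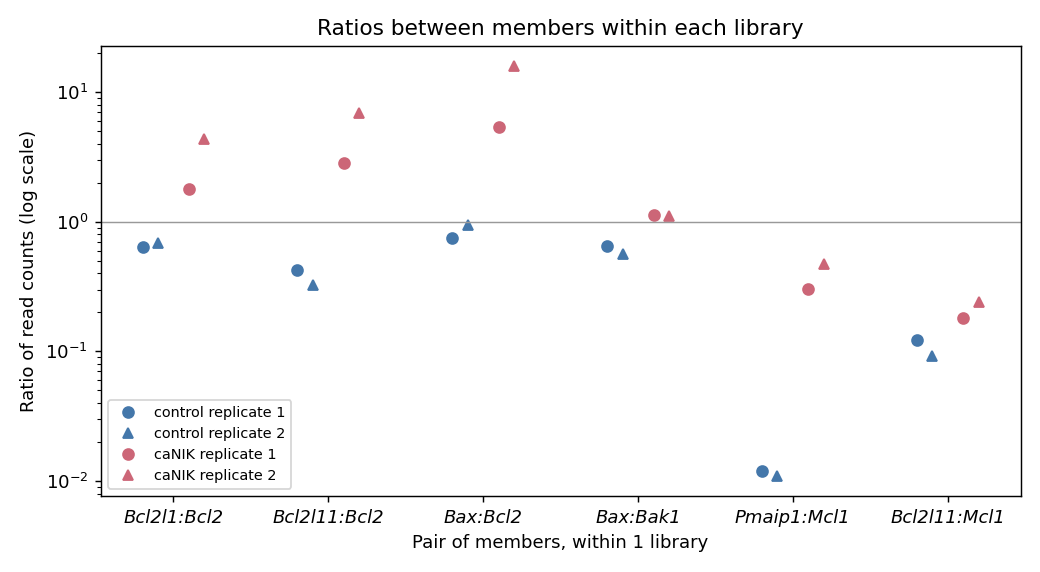
Ratio of read counts of 2 members within the same library, on a log axis, for 6 pairs (blue control, red caNIK; circles replicate 1, triangles replicate 2; the grey line marks a ratio of 1). Counts are not corrected for gene length, so the grey line does not mark equal levels. Each pair has the member with the larger log2 fold change as numerator, so the red points lie above the blue ones. Shifts on the log2 scale run from 0.89 for Bax to Bak1 to 5.04 for Pmaip1 to Mcl1.

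Promoter sequence is shown for the members that changed, to set the rises of Bbc3, Bax and Bcl2l11 beside the falls of Bok and Bcl2. RefSeq promoter windows (build GRCm38.p6) were matched by symbol for 9 of 10 members, in 14 windows; Pmaip1 had no match. Each run below is the 250 bases before a transcript start, 5′ to 3′ on the gene's strand, with matches to a searched motif in capitals. The motifs, searched on both strands, were the NF-kB consensus, the p53 half-site consensus, the STAT motif TTCNNNGAA and the FOXO motif TGTTTAC. Windows are chr7:16309333-16309582 (plus strand) for Bbc3, chr7:45466899-45467148 (minus strand) for Bax, chr2:128125788-128126037 (plus strand) for Bcl2l11, chr1:93685325-93685574 (plus strand) for Bok and chr1:106714291-106714540 (minus strand) for Bcl2.
Bbc3: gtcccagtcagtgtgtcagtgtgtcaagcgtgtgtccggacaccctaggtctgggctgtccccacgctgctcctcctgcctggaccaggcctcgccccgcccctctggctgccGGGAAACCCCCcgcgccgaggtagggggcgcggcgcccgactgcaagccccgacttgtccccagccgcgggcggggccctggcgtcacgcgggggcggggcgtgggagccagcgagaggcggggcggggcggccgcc
Bax: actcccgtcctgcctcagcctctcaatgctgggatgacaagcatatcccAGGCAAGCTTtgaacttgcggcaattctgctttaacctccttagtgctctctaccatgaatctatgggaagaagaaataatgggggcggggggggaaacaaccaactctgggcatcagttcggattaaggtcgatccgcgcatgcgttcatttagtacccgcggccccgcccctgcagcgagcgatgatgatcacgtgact
Bcl2l11: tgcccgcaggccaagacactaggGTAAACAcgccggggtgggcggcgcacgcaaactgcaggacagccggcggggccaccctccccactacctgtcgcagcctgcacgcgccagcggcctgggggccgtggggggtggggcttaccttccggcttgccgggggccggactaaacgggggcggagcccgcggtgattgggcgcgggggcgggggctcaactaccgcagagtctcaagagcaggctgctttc
Bok: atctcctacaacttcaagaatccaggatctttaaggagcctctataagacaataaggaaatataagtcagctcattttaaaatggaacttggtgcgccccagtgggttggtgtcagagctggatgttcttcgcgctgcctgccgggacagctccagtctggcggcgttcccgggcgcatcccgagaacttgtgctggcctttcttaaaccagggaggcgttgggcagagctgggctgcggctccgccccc
Bcl2: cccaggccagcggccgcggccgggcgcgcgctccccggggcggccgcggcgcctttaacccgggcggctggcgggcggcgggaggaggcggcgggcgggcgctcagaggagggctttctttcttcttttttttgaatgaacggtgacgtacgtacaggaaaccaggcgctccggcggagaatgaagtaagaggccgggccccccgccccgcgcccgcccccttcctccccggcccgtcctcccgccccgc

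In the Bbc3 window shown, 2 overlapping NF-kB matches begin 137 and 136 bases before the start. The Bax window holds a p53 half-site match 201 bases before the start, and the Bcl2l11 window shown a FOXO match 227 bases before it. A second Bbc3 window holds a FOXO match, and a window of Bcl2l1, which did not pass, holds an NF-kB match. All 250 bases of that Bcl2l1 window lie within annotated exons of the gene itself. The same holds for another Bcl2l1 window and for the Bak1 window. The windows of Bok and Bcl2, the members that fell, hold none of the 4 motifs, which says only that these letters are not in those bases. Nor do the windows of Mcl1, Bak1 and Bcl2l2, which did not pass, or another window each of Bcl2l11 and Bbc3, which rose. More windows were searched for Bbc3 and Bcl2l11 than for Bok or Bcl2. Over all 32851 windows of the same length, 7.25% hold the NF-kB consensus, 7.13% the p53 half-site, 7.02% the STAT motif and 3.17% the FOXO motif. A match is a description of letters and shows no binding.

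The family has 13 further genes on the list used here, of which 11 were tested. Of these, 5 were higher, 0 lower and 6 did not pass, where 13.8% of all tested genes were higher and 8.21% lower. The anti-apoptotic A1 genes rose. Bcl2a1a, Bcl2a1b and Bcl2a1d encode near-identical A1 proteins, known NF-kB targets of myeloid, mast and lymphoid cells, and reads may be split between the copies in ways that cannot be told apart. Their summed counts were 12 and 10 in control and 1102 and 527 in caNIK, or 0.622 and 0.426 CPM against 59.2 and 25.4 CPM. Bcl2a1b held most of these reads, with 8 and 7 in control and 855 and 380 in caNIK (log2 fold change 6.48 ± 0.61; edgeR adjusted p = 0.000877). Bcl2a1d rose by 5.26 ± 0.91 (edgeR adjusted p = 0.0091). Bcl2a1a, with 1 control read in all, was higher by a ratio of 192, with an exact 95% counting interval of 34.1 to 7634 (edgeR adjusted p = 0.00275). Bcl2l10 had no read in any library.

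Among the other BH3-only genes, Bik, with 2 control reads in all, reached 1.56 and 1.25 CPM in caNIK, 29.9 times the control level (counting interval 7.88 to 253) (edgeR adjusted p = 0.0245). Bid, which caspases cleave to link death receptors to mitochondria, was at 45.0 and 52.9 CPM in control and 37.9 and 35.4 CPM in caNIK and did not pass (edgeR adjusted p = 0.136). Bad, a target of survival kinases, was at 17.6 and 18.2 against 18.0 and 16.3 CPM, with overlapping groups (edgeR adjusted p = 0.878). Bmf was at 4.30 and 3.96 CPM in control and 16.4 and 5.11 CPM in caNIK, so that caNIK replicate 1 stood well above the other 3 libraries (edgeR adjusted p = 0.136). Hrk had 1 read in 1 library of each group. Of the divergent genes, Bcl2l13, which encodes a mitochondrial protein with a part in mitophagy, rose from 98.4 and 120 CPM to 295 and 375 CPM (log2 fold change 1.62 ± 0.19; edgeR adjusted p = 0.00192). Bcl2l12 (-0.44 ± 0.19), Bcl2l14 (0.82 ± 0.50) and Bcl2l15 (0.60 ± 0.81) did not pass on the log2 scale of the same test.

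For the lists that follow, the shares over all tested genes were 13.8% higher and 8.21% lower. Downstream of the effectors, 1 of 11 genes of the apoptosome and mitochondrial release list was higher and 0 lower, with a median log2 fold change of 0.07. This was Apaf1, the scaffold that cytochrome c activates, at 61.8 and 71.2 CPM in control and 127 and 156 CPM in caNIK (log2 fold change 1.09 ± 0.17; edgeR adjusted p = 0.00678). Of 10 genes whose proteins regulate members, 3 were higher and 0 lower (median 0.31). Pim2 (1.84 ± 0.24) and Pim1 (0.55 ± 0.14) encode survival kinases that phosphorylate BAD, and March5 (0.65 ± 0.17) encodes a ubiquitin ligase of the outer mitochondrial membrane (edgeR adjusted p = 0.00335, 0.0335 and 0.0344). Of 17 transcription factors cited upstream of members, 4 were higher and 3 lower (median 0.28). The smallest p-values were those of Nfkb2, at 22.7 and 21.7 against 617 and 851 CPM, Relb, at 8.04 and 6.14 against 152 and 174 CPM, and Myc, a driver of growth that also sensitises cells to apoptosis, which fell by 0.85 ± 0.16 on the log2 scale (edgeR adjusted p = 0.0109). The p53 gene Trp53, named after its values were seen, was at 278 and 285 CPM in control and 313 and 395 CPM in caNIK and did not pass (0.33 ± 0.16; edgeR adjusted p = 0.199). Trp73 of the same list, also named after its values were seen, was among those higher. It had 0 and 3 reads in control and 65 and 46 in caNIK (edgeR adjusted p = 0.0146). Foxo3 and Foxo1, named because a FOXO motif was searched and also after their values were seen, did not pass. Foxo3 was at 90.7 and 110 CPM in control and at 66.1 and 73.8 CPM in caNIK (-0.52 ± 0.17, edgeR adjusted p = 0.0705). Foxo1 was at 34.3 and 28.7 CPM in control and at 34.9 and 41.5 CPM in caNIK (edgeR adjusted p = 0.363). Whether FOXO factors act on the members was not tested.

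By the distance between centred log2 CPM profiles over the 4 libraries, the tested genes closest to Pmaip1 were Pla2g7 (distance 0.22), Nfkb2 (0.25) and Tnfrsf11a (0.25). Those closest to Bok were Fam181b (0.72), Vldlr (0.86) and Crispld1 (0.89). With 4 libraries, many genes share such a profile.

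Some family genes varied between replicates alongside the cell type markers. Bcl2 and the summed HSPC markers were both lower in caNIK, and both were lower in caNIK replicate 2 than in replicate 1 (8.63 against 18.6 CPM, and 1234 against 1642 CPM). The A1 genes and the mast cell or basophil list were both higher in caNIK replicate 1 than in replicate 2 (59.2 against 25.4 CPM, and 2106 against 1148 CPM). In control, where the A1 sum was 0.622 and 0.426 CPM, the mast list was at 155 and 245 CPM, the reverse order. Bax and the erythroid list were both higher in replicate 2 within each group (Bax 57.9 and 137 CPM, the list 970 and 3417 CPM in replicate 2). Other lists kept these replicate orders too. Neutrophil sums, like Bax, were higher in replicate 2 (53.3 and 153 CPM in control, 231 and 330 CPM in caNIK). Endothelial sums, like Bcl2, were lower in replicate 2 within each group. So were mature B cell and T or NK cell sums, like the A1 genes. Megakaryocyte and monocyte or macrophage sums changed order between the groups. No marker of the HSPC, mast cell or basophil, and erythroid lists was at 0 across a whole group. The part of cell type composition in the members' changes was not tested.

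**Figure D4:**
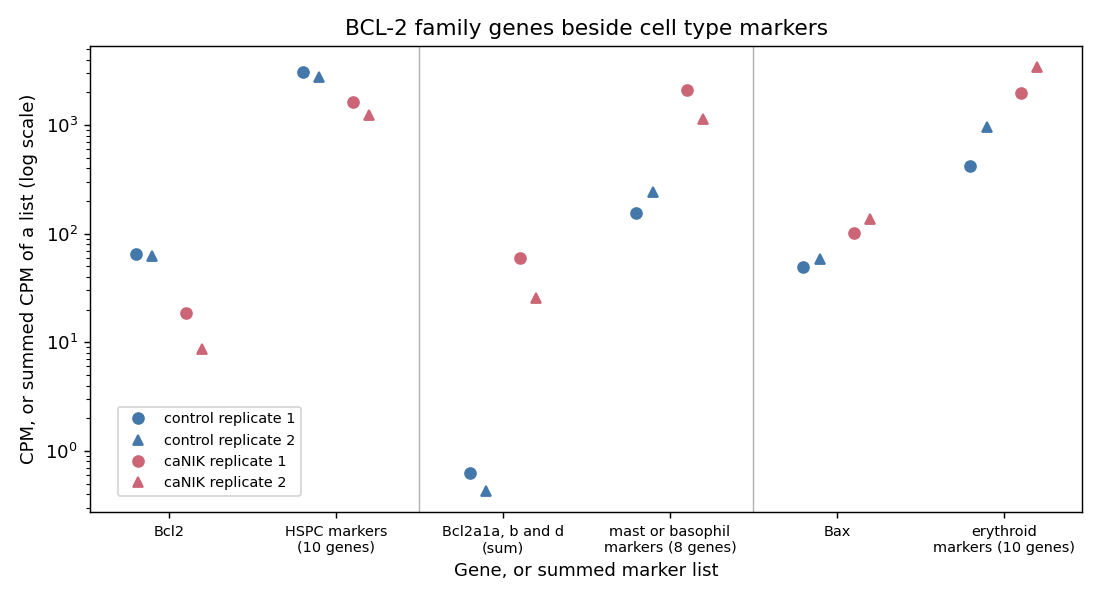
CPM of Bcl2, of the summed A1 genes and of Bax, each beside the summed CPM of 1 chosen marker list, in each library on a log axis (blue control, red caNIK; circles replicate 1, triangles replicate 2). Other lists had the same replicate orders. Bcl2 and the HSPC markers are lower in caNIK; the A1 genes with the mast cell or basophil markers, and Bax with the erythroid markers, are higher.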

How the data were processed

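RNA came from sorted cells by column extraction, and library preparation was a standard Illumina one, per the labels' protocols. The authors deposited raw read counts per gene symbol; per the file headers and the values, these were not normalised. The submitters' processing notes list the build mm9, DESeq2 1.10.1, featureCounts 1.5.0, TopHat2 2.1.0 and FastQC, without their roles. The annotation, the strand setting and the handling of multi-mapping reads were not stated.

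Groups came from the titles. With edgeR 4.0.16 (R 4.3.3), filterByExpr kept 14191 of 24015 genes, TMM scaled the libraries, and glmQLFit and glmQLFTest tested genotype as the only term (two-sided, Benjamini-Hochberg adjusted p under 0.05 over all tested genes). SE come from the F statistic, and 95% intervals use the fit's degrees of freedom. Members, lists and rules were chosen with earlier results of these data known. All members are named; of other lists, every tested family gene, otherwise up to 3 past the threshold with the smallest p. Nearest profiles used log2 CPM (prior count 2) of genes with a mean of at least 1 CPM. Counting intervals take in counting error alone.

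On simulated counts for caNIK against control (5 simulations, 200 changed genes in each, a median of 13939 genes tested), the test recovered 5.23% of genes changed 1.5-fold, 33.9% at 2-fold and 73.1% at 4-fold, and 2.97% of calls were of unchanged genes. Each simulation changed fewer genes than the 3129 that passed in the data, so these shares need not hold for the real comparison. Alternatives were DESeq2 1.42.0, limma-voom (limma 3.58.1), 3 other scalings, 2 other filters, a replicate block and each library left out in turn.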

Additional observations from a re-analysis of the deposited data

How the results depend on the processing

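Under all 12 alternatives named under processing, the same 4 members were higher and the same 2 lower, so that the counts were 4 and 2 throughout. The 4 fits that leave out a library have a group of 1, which is assumed to vary like the other group, so they show how the values move more than how firm the calls are. Over the 10 members and 12 alternatives, 119 of 120 log2 fold changes kept their direction and their side of the threshold. The exception was Bak1, which did not pass in any fit and was at -0.015 without caNIK replicate 2 and at 0.496 without control replicate 2. Ranges over all fits were 5.08 to 5.52 for Pmaip1, 1.57 to 1.98 for Bbc3, 1.01 to 1.47 for Bcl2l11, 0.89 to 1.36 for Bax, -2.88 to -1.80 for Bcl2 and -5.84 to -4.53 for Bok. The highest adjusted p of these 6 was 0.0285, for Bcl2l11 without caNIK replicate 2. Genes past the threshold over the whole table numbered 3129, and 2604 to 3174 with 1 library left out. Other scalings moved the median of all genes by at most 0.07 on the log2 scale. The titles share replicate numbers, but with 2 pairs they do not show that libraries were paired; the differences between replicates 1 and 2 correlated across genes at 0.21 between the groups. With the replicate number as a block, 4260 genes passed, and the members stayed at 4 higher and 2 lower, with Bcl2 at -2.32 and Bok at -4.96. Depth limits Bok in caNIK (4 and 11 reads). Detection is also limited by 2 libraries a group. On simulated counts the test recovered 33.9% of genes changed 2-fold and 73.1% of those changed 4-fold. Those simulations changed 200 genes each, fewer than the 3129 that passed here, so the shares need not hold for this comparison.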
